A study of Rattus norvegicus with 12 samples.

Results

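Platelet and megakaryocyte genes were followed in bulk RNA-seq of rat lung. The set held 10 gene symbols chosen by name, Itga2b, Itgb3, Gp1ba, Gp1bb, Gp9, Gp6, Treml1, Pf4, Ppbp and Tubb1. No cut on a measured value defined the set, but it was chosen with earlier results of these data known. The 10 symbols matched 11 gene models of the 19687 listed in any of the 3 deposited tables, because the symbol Gp1bb is attached to 2 models. All 12 lungs came from male Sprague-Dawley rats, 9 weeks old per the labels, that had received monocrotaline (MCT), a plant toxin that injures the pulmonary endothelium and induces pulmonary hypertension. MCT was given as 1 subcutaneous injection of 60 mg per kg. The PBS controls thus carried the MCT injury too and no lung was untreated. Osmotic minipumps delivered phosphate-buffered saline (PBS, the vehicle), AngII at 1 mg per kg per day, TRV023 at 10 µg per kg per min, or losartan at 10 mg per kg per day. AngII is the natural agonist of the angiotensin II type 1 receptor (AT1R), TRV023 is a peptide agonist biased towards β-arrestin, and losartan is an AT1R antagonist. Infusion for 2 weeks from 1 week after MCT is stated for histology and hemodynamics, and no other schedule is stated for the sequenced lungs. Each group had 3 rats with 1 library per rat, and rats are called by the names of their libraries (Veh for PBS, Ang2, Trv and Los).

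Platelets are anucleate fragments shed by megakaryocytes, which reside in bone marrow and also in the lung circulation. They carry a restricted pool of megakaryocyte mRNA. Their surface receptors bind the injured vessel wall and fibrinogen, their α-granules release chemokines, and a ring of microtubules keeps the resting platelet disc-shaped. In whole lung RNA, fewer platelets or megakaryocytes and less of a transcript per cell cannot be told apart. The lung label was met by the level of Sftpc, the surfactant protein C gene of alveolar type II cells, at 5224 to 16390 FPKM, and of Scgb1a1, the club cell secretoglobin, at 6588 to 30480 FPKM. FPKM is fragments per kilobase of transcript scaled to the counted reads of the library, so levels in FPKM can be compared between genes, although for Itga2b, Gp6 and the septin model of Gp1bb the length behind the FPKM was shorter than the one listed. Libraries held 16106337 to 20096877 counted reads, and single models had from 0 reads (Gp6) to 2107 reads (Pf4) in a library.

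The upstream sequence of the genes is shown because 8 of the gene models varied together across the libraries, as described further on, and because GATA and ETS family transcription factors are known to act together on megakaryocyte genes. RefSeq entries on the rat build GRCr8 matched 8 of the 10 symbols, all but Pf4 and Itgb3, and each window covers the 250 bases before the annotated start of transcription. The letters AGATAA, also with T as the opening letter, with G as the closing letter or with both, searched on both strands, stood in the windows of 4 of the 8 genes and in 27.0% of all 33469 windows of that length. The 5 windows below are printed 5′ to 3′ on the strand of the gene, with those letters in capitals, which appear as their reverse complement where they lie on the other strand. The first 4 are the genes with such letters, and Ppbp is given as a member of the co-varying group without them. All 8 genes with a window belong to the co-varying group, so the windows cannot compare that group with the other genes of the set.
Itga2b: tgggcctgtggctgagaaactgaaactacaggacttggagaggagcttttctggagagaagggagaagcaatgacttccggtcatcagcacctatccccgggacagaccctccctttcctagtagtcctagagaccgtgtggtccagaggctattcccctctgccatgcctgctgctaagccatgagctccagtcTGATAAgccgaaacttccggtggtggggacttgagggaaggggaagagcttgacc
Gp1ba: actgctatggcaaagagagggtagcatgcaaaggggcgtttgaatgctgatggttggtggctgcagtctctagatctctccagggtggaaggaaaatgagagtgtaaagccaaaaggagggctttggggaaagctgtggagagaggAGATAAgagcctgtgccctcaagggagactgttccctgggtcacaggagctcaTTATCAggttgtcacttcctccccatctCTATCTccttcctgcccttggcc
Gp1bb: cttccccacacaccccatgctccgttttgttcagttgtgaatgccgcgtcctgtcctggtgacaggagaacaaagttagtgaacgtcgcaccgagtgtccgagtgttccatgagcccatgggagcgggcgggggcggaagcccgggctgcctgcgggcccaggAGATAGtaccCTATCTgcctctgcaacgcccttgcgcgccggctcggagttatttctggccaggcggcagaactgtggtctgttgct
Gp6: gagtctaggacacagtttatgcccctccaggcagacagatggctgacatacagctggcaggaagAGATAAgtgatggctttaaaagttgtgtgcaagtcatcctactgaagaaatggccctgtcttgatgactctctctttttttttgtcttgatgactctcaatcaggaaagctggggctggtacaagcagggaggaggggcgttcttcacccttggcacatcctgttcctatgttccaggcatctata
Ppbp: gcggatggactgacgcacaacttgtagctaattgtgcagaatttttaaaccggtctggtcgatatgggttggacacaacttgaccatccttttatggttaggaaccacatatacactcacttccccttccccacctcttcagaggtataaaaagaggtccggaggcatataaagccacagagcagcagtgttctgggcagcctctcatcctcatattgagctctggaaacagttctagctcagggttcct

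These windows lie at chr10:87925834-87926083 on the minus strand for Itga2b, chr10:55851309-55851558 on the plus strand for Gp1ba, chr11:95882311-95882560 on the plus strand for Gp1bb, chr1:78508258-78508507 on the plus strand for Gp6 and chr14:17587300-17587549 on the minus strand for Ppbp. The first base of the GATA letters stood 55 bases before the start in Itga2b and 186 bases before it in Gp6. Gp1ba held such letters at 3 places, 104, 51 and 23 bases before the start, and Gp1bb held them at 2 places, 87 and 77 bases before it. The ETS letters GGAAG, searched on both strands and able to share an edge with the GATA letters, stood in 7 of the 8 windows and in 63.3% of all windows. Both kinds stood in 4 of the 8 windows and in 15.9% of all windows, and TATAAA, searched on the strand of the gene only, stood in Ppbp alone and in 8.1% of all windows. A match of letters is a description of the window and not a site of binding.

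Pf4, the gene of platelet factor 4 (CXCL4), a heparin-binding chemokine of α-granules, had by far the highest level of the set. Its mean over the 12 libraries was 219.3 FPKM, which was 82.9% of the summed mean FPKM of the 11 models. The remaining models had means from 0.501 FPKM in Gp1ba to 13.6 FPKM in Gp1bb. Pf4 read 158.2, 174.0 and 161.0 FPKM in Veh_923, Veh_924 and Veh_963, and 194.6, 353.5 and 244.0 FPKM in Ang2_922, Ang2_931 and Ang2_933. It read 389.3, 250.7 and 244.9 FPKM in Trv_917, Trv_918 and Trv_930, and 167.9, 135.9 and 157.7 FPKM in Los_925, Los_964 and Los_965. Every AngII and every TRV023 rat was above every PBS and every losartan rat, the AngII and TRV023 rats overlapped with each other, and so did the PBS and losartan rats.

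Group means of Pf4 were 164.4 ± 8.44 FPKM with PBS, 264.0 ± 81.3 FPKM with AngII, 295.0 ± 81.8 FPKM with TRV023 and 153.8 ± 16.4 FPKM with losartan (SD, n = 3 rats each). Relative to PBS, Pf4 was 1.78-fold higher with AngII, a log2 fold change of 0.83 ± 0.22 (SE; 95% interval 0.32 to 1.34). With TRV023 it was 1.80-fold higher, a log2 fold change of 0.85 ± 0.20 (SE; 95% interval 0.39 to 1.31). Neither difference passed edgeR's quasi-likelihood test with Benjamini-Hochberg adjustment over all genes tested, with adjusted p = 0.336 for AngII and 0.543 for TRV023 and unadjusted p = 0.00535 and 0.00280. By that test 0 of 11 models were called with AngII and 0 of 10 with TRV023, against 0.0133% and 0.00658% of all genes. At an unadjusted p under 0.05, Pf4 was the 1 model higher in each comparison, against 6.54% of all genes with AngII and 2.61% with TRV023. DESeq2, an alternative test on the same reads, called Pf4 in both comparisons, with adjusted p = 0.0453 for AngII and 0.0254 for TRV023, and called 1.45% and 0.704% of all genes. It was also the 1 model whose AngII rats all lay above the PBS rats, which 9.3% of all genes did, and the 1 model whose TRV023 rats all did so, as 4.84% of all genes did.

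With losartan, Pf4 was at a log2 fold change of -0.05 ± 0.12 relative to PBS (95% interval -0.33 to 0.23). The test between AngII and TRV023 gave -0.01 (95% interval -0.52 to 0.50), so a difference of up to about that size in either direction was not detectable. AngII exceeded losartan by a log2 difference of 0.89 and TRV023 exceeded losartan by 0.90 for Pf4, with unadjusted p = 0.00248 and 0.00227 and edgeR adjusted p = 0.328 and 0.920. Pf4 was the 1 model higher at such an unadjusted p in each, against 4.69% and 2.29% of all genes, and the 1 model higher without overlap, against 6.01% and 3.93%, while the adjusted test called 0% of all genes in both. The 2 values rest on the same losartan rats. Leaving out Ang2_931 lowered the AngII value against PBS from 0.83 to 0.54, and removing each library's trend with gene length, Pf4 having only 318 bases, also gave 0.54. The DESeq2 call with AngII was kept when Ang2_922 was left out and lost when any other of the 6 rats was, with adjusted p up to 0.310, and the call with TRV023 was kept in 3 of 6 such fits.

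**Figure D1:**
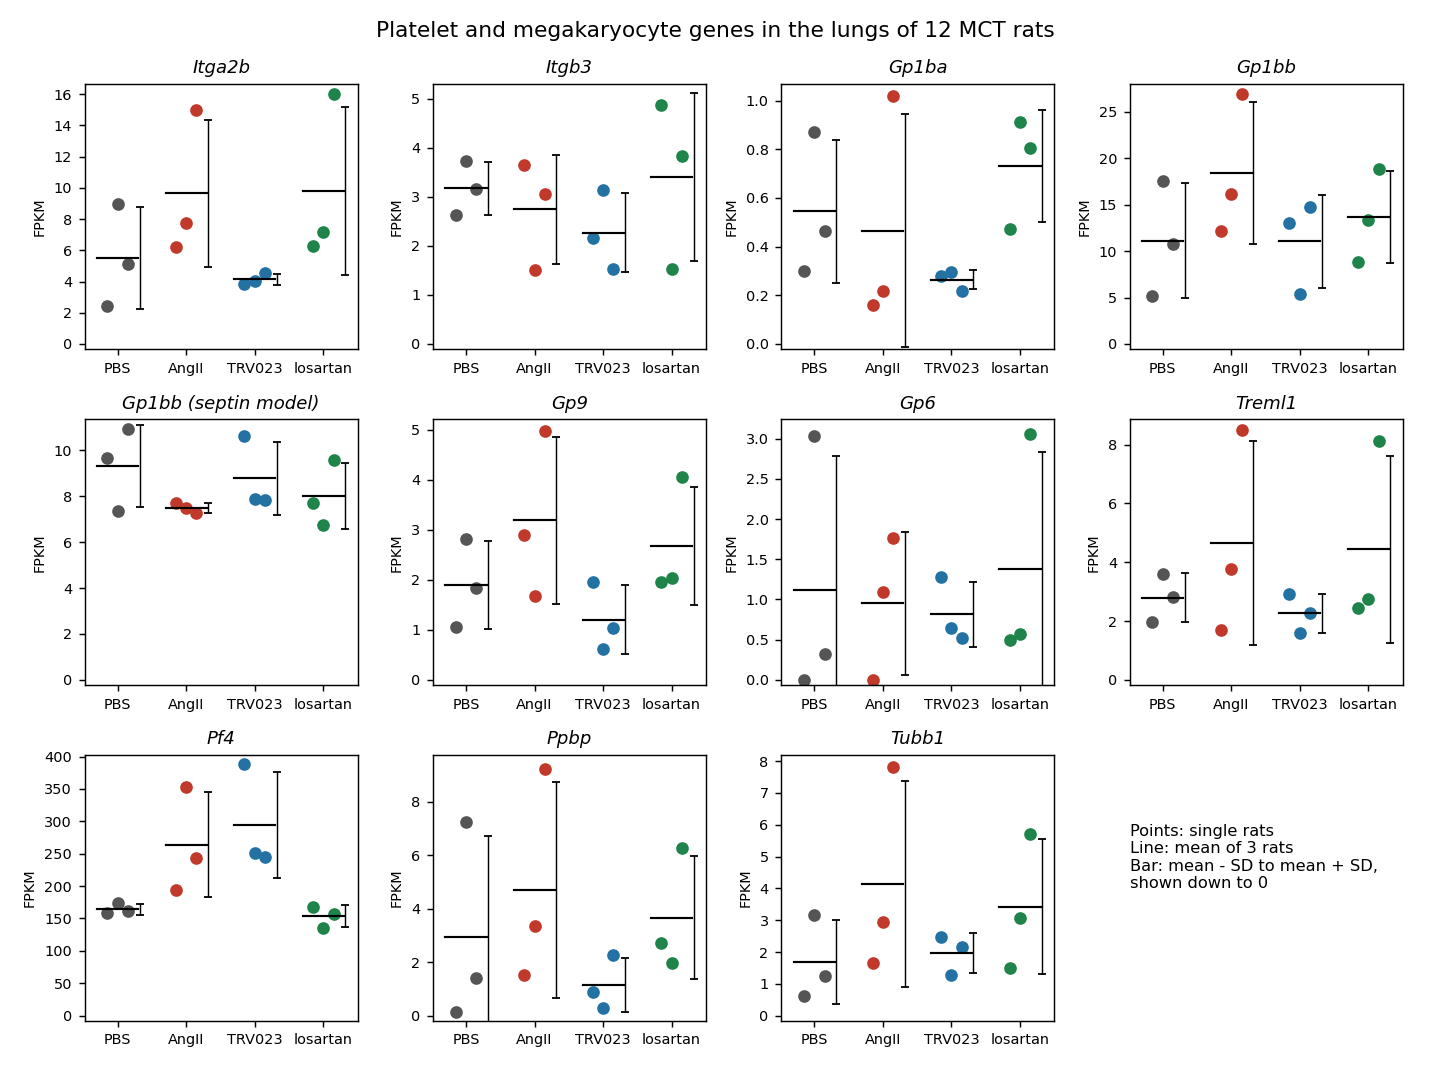
Level of each gene model (FPKM, vertical axis of each panel) in the lungs of single rats (points, 3 per group), with the group mean (line) and SD (bar, shown down to 0). In the Pf4 panel all AngII and TRV023 rats lie above 190 FPKM and all PBS and losartan rats below 180 FPKM, whereas the groups overlap in most other panels.

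Ppbp, which encodes pro-platelet basic protein, the precursor of another α-granule chemokine, is the nearest neighbour of Pf4. The files place Pf4 at chr14:18758191-18758900 and Ppbp at chr14:18762075-18762879, both on the minus strand and 3175 bases apart, on a build that no source used here names. Ppbp read 0.142, 7.22 and 1.41 FPKM in Veh_923, Veh_924 and Veh_963, and 1.52, 3.33 and 9.23 FPKM in Ang2_922, Ang2_931 and Ang2_933. It read 0.882, 0.283 and 2.27 FPKM in Trv_917, Trv_918 and Trv_930, and 2.73, 1.98 and 6.27 FPKM in Los_925, Los_964 and Los_965. The groups overlapped, and the reads behind these levels numbered 1 to 56 per library. The log2 fold change relative to PBS was 0.83 with AngII (95% interval -1.67 to 3.33) and 0.37 with losartan (95% interval -2.03 to 2.78), while Ppbp was left out of the TRV023 test by the filter on low counts. Across the 12 libraries the highest level of Ppbp was 64.8 times the lowest, compared with 2.87 times for Pf4.

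Itga2b and Itgb3 encode integrins αIIb and β3, which together form the platelet fibrinogen receptor. Itga2b marks the megakaryocyte lineage, whereas β3 also pairs with αv in endothelium and smooth muscle. Itga2b read 2.46, 8.95 and 5.14 FPKM in Veh_923, Veh_924 and Veh_963, and 6.19, 7.78 and 15.02 FPKM in Ang2_922, Ang2_931 and Ang2_933. It read 3.86, 4.02 and 4.54 FPKM in Trv_917, Trv_918 and Trv_930, and 6.28, 7.16 and 15.99 FPKM in Los_925, Los_964 and Los_965. The TRV023 rats all lay below the AngII and losartan rats and within the range of the PBS rats. Itga2b was 2.59-fold higher with AngII than with TRV023, a log2 difference of 1.37 ± 0.48 (SE; 95% interval 0.32 to 2.42, unadjusted p = 0.0143, edgeR adjusted p = 0.333). It was lower with TRV023 than with losartan by a log2 difference of -1.29 (95% interval -2.33 to -0.25, unadjusted p = 0.0195, edgeR adjusted p = 0.998), where 2.27% of all genes were lower at an unadjusted p under 0.05. Relative to PBS the log2 fold change of Itga2b was 0.95 with AngII, -0.41 with TRV023 and 0.89 with losartan, and all 3 intervals included 0.

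Between AngII and TRV023, 0 models passed the adjusted test, against 0% of all genes, and Itga2b and Gp9 had an unadjusted p under 0.05, which 5.43% of all genes did in that direction. Itga2b was the 1 model whose AngII rats all lay above the TRV023 rats, as 8.15% of all genes did. Leaving out Ang2_933 lowered the difference in Itga2b from 1.37 to 0.89 and took away the unadjusted p under 0.05. Itgb3 had no such order, at 2.63 to 3.73 FPKM with PBS, 1.51 to 3.66 FPKM with AngII, 1.53 to 3.14 FPKM with TRV023 and 1.53 to 4.87 FPKM with losartan. Its log2 fold changes relative to PBS were -0.09, -0.49 and 0.12 in the order AngII, TRV023 and losartan.

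Gp1ba, Gp1bb and Gp9 encode subunits of the GPIb-IX complex, the platelet receptor for von Willebrand factor. Gp1ba, at chr10:57006274-57009140, had the lowest mean level of the set. It read 0.2995, 0.872 and 0.465 FPKM in Veh_923, Veh_924 and Veh_963, 0.160, 0.219 and 1.02 FPKM in Ang2_922, Ang2_931 and Ang2_933, 0.278, 0.297 and 0.219 FPKM in Trv_917, Trv_918 and Trv_930, and 0.472, 0.912 and 0.805 FPKM in Los_925, Los_964 and Los_965. All TRV023 rats lay below all PBS rats, as 5.4% of all genes did, and below all losartan rats, as 4.16% of all genes did, but these levels rest on 8 to 47 reads per library. The log2 fold change with TRV023 was -1.04 ± 0.53 (SE; 95% interval -2.25 to 0.18) relative to PBS, with unadjusted p = 0.0843.

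Gp9, at chr4:184931999-184933334, read 1.05 to 2.82 FPKM with PBS, 1.69 to 4.99 FPKM with AngII, 0.611 to 1.96 FPKM with TRV023 and 1.95 to 4.05 FPKM with losartan. Ang2_933 was highest and Trv_918 was lowest for Gp9. It was 2.91-fold higher with AngII than with TRV023, a log2 difference of 1.54 ± 0.64 (SE; 95% interval 0.14 to 2.94, unadjusted p = 0.0332, edgeR adjusted p = 0.406), and the rats of these groups overlapped. Relative to PBS, Gp9 stood at a log2 fold change of 0.87 with AngII, -0.67 with TRV023 and 0.55 with losartan, and each interval included 0.

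For Gp1bb, the model described as a glycoprotein (chr11:89621049-89622160) read 5.12 to 17.5 FPKM with PBS, 12.2 to 26.9 FPKM with AngII, 5.37 to 14.8 FPKM with TRV023 and 8.83 to 18.8 FPKM with losartan. Its log2 fold change relative to PBS was 0.87 with AngII (95% interval -0.18 to 1.91) and 0.36 with losartan, and with TRV023 it was near 0 (95% interval -1.16 to 1.16). The second model of that name, described as a septin (chr11:89612789-89619907), ends 1142 bases before the first and read 6.74 to 10.9 FPKM over all 12 libraries. The glycoprotein model varied with a coefficient of variation (CV) of 44.5% and the septin model with one of 16.8%. How reads were divided between neighbouring models of the same name is named by no source used here, so both are uncertain.

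Gp6 encodes the collagen receptor GPVI. It was counted at 0 reads in Veh_923 and in Ang2_922, where 3 reads would have equalled 0.163 and 0.174 FPKM. Elsewhere it read 3.03 and 0.324 FPKM with PBS, 1.10 and 1.76 FPKM with AngII, 0.519 to 1.28 FPKM with TRV023 and 0.493 to 3.06 FPKM with losartan. Veh_924 and Los_965 stood above all the others. No direction could be read for Gp6, with a 95% interval of the log2 fold change from -3.44 to 3.29 with AngII.

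Treml1 encodes TLT-1, a receptor of the α-granule membrane that reaches the surface on platelet activation. It read 1.95, 3.61 and 2.82 FPKM in Veh_923, Veh_924 and Veh_963, 1.70, 3.78 and 8.49 FPKM in Ang2_922, Ang2_931 and Ang2_933, 2.93, 1.59 and 2.26 FPKM in Trv_917, Trv_918 and Trv_930, and 2.45, 2.75 and 8.12 FPKM in Los_925, Los_964 and Los_965. Ang2_933 and Los_965 were each more than 4 FPKM above the next rat of their group. The log2 fold change of Treml1 relative to PBS was 0.88 with AngII, -0.30 with TRV023 and 0.72 with losartan, none with an unadjusted p under 0.05.

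Tubb1 encodes β1-tubulin, the tubulin of the platelet microtubule ring. It read 0.627, 3.17 and 1.25 FPKM in Veh_923, Veh_924 and Veh_963, 1.65, 2.94 and 7.81 FPKM in Ang2_922, Ang2_931 and Ang2_933, 2.47, 1.28 and 2.16 FPKM in Trv_917, Trv_918 and Trv_930, and 1.49, 3.08 and 5.70 FPKM in Los_925, Los_964 and Los_965. Ang2_933 was again the highest of all and Veh_923 the lowest. Tubb1 had the largest log2 fold change of the set with AngII, 1.45 ± 0.73 (SE; 95% interval -0.21 to 3.10, unadjusted p = 0.0796, edgeR adjusted p = 0.466), and without Ang2_933 it was 0.60.

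**Figure D2:**
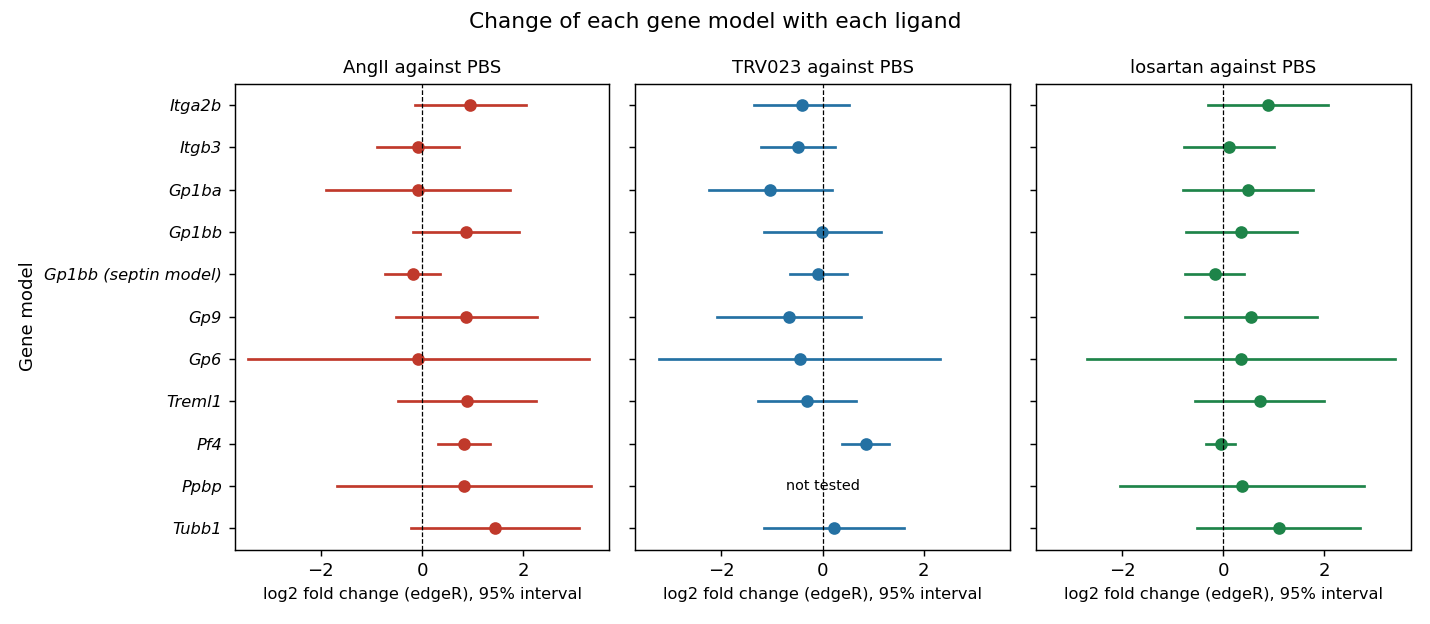
Log2 fold change of each gene model relative to PBS (points) with its 95% interval (lines), from edgeR, in 1 panel per ligand. The intervals of Pf4 lie above 0 with AngII (0.32 to 1.34) and TRV023 (0.39 to 1.31), all other intervals include 0, and Ppbp was not tested with TRV023.

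As a set, 7 of 11 models had a positive log2 fold change with AngII, with a median of 0.83 beside -0.02 over all 15059 genes tested. With TRV023, 2 of 10 were positive and the median was -0.36, beside 0.00 over all genes. With losartan, 9 of 11 were positive and the median was 0.37, beside 0.01 over all genes, and 0 models were called by edgeR (0% of all genes) or DESeq2 (0.0396% of all genes), nor did any have an unadjusted p under 0.05 (1.65% of all genes). These counts turned on single rats. Without Ang2_933 the AngII median was 0.13, without Veh_924 the TRV023 median was 0.03, and without Los_965 the losartan median was 0.01. Without Veh_923 the AngII median was 0.52 and the losartan median 0.01, and without Veh_924 they were 1.27 and 0.95. All comparisons with PBS share the same 3 control rats.

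Most of the 11 models varied more between the 12 rats than most genes did. Gp6 had a CV of 99.1% over the 12 libraries, Ppbp 93.9%, Tubb1 73.6%, Treml1 65.8%, Gp1ba 62.4%, Itga2b 58.4% and Gp9 56.7%, beside a median of 21.3% over the 13821 genes with a mean of at least 1 FPKM. Itgb3 stood at 36.8% and Pf4 at 37.0%. The comparison was not matched for read number, and counting error adds more to a CV where reads are few. Reads per library ran from 0 to 55 for Gp6, 1 to 56 for Ppbp and 7 to 49 for Gp9. Gp1ba, with a mean of 0.501 FPKM, lay below the level of the genes compared. Within the PBS group alone the CV of Pf4 was 5.14%, while that of Ppbp was 129%.

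Much of this variation was common to 8 models, Itga2b, Gp1ba, the glycoprotein model of Gp1bb, Gp9, Gp6, Treml1, Ppbp and Tubb1, a grouping made after their values were seen and given here as a description. Ang2_933 was highest for 6 of the 8 and among the top 3 for all 8. Los_965 was among the top 2 for 6 of the 8, and Veh_924 among the top 3 for 6. At the other end, Veh_923 was lowest for 4 of the 8 and Trv_918 for 2. The summed level of the 8 was 11.7, 47.2 and 24.0 FPKM in Veh_923, Veh_924 and Veh_963, 26.3, 37.0 and 75.2 FPKM in Ang2_922, Ang2_931 and Ang2_933, 26.7, 14.1 and 27.8 FPKM in Trv_917, Trv_918 and Trv_930, and 24.7, 31.8 and 62.8 FPKM in Los_925, Los_964 and Los_965. The high rats came from different groups, and all 4 groups overlapped.

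Over the 12 libraries, which differ in depth by the range given above, Pearson's r of log2(FPKM + 1) between pairs of the 8 models ran from 0.53 to 0.92 with a median of 0.79 over 28 pairs. Spearman's rho had a median of 0.72, and without the 2 libraries farthest from the median r was 0.68. Because the 8 were grouped after their values were seen, a higher r within the group than outside it is partly built in. Pf4 did not share the pattern of the 8, with r from -0.47 to 0.17 and a median of -0.02 against the same 8 models. Itgb3 had a median r of 0.17 and the septin model of Gp1bb one of -0.27. The libraries with the highest Pf4, Trv_917 and Ang2_931, were thus not those with the highest levels of the other platelet genes.

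**Figure D3:**
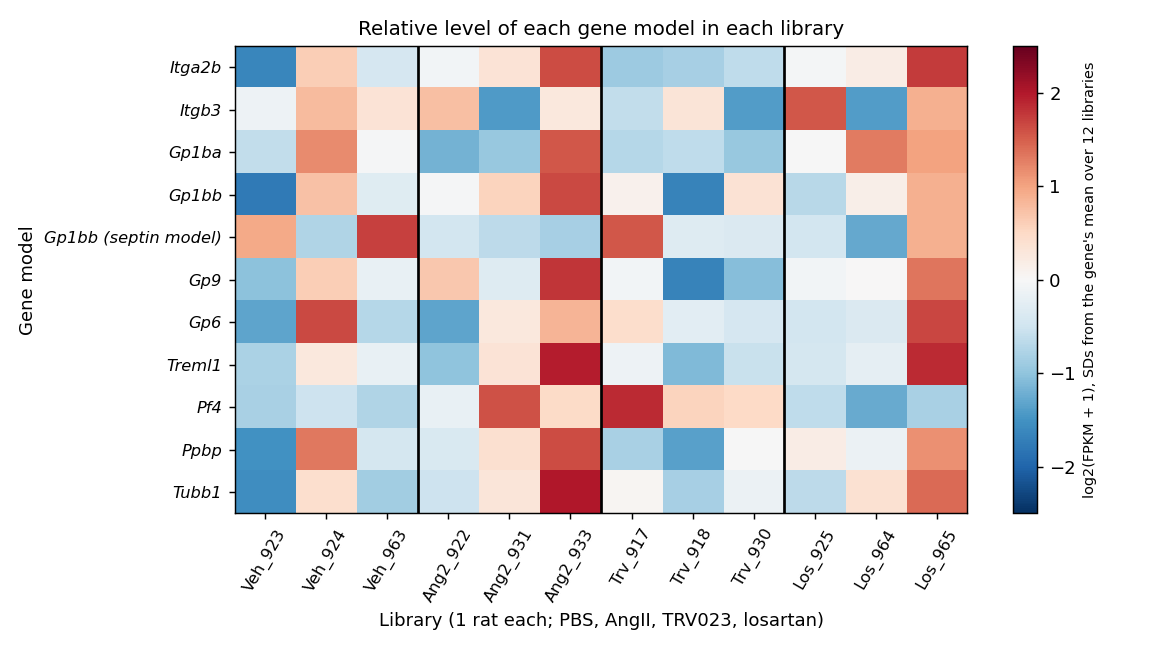
Each row is a gene model and each column a library (1 rat each, named by group and rat number), with colour giving log2(FPKM + 1) in SDs from the mean of that model over 12 libraries. The columns Ang2_933 and Los_965 are red for the 8 co-varying models and Veh_923 is blue for all 8, while the rows of Pf4, Itgb3 and the septin model of Gp1bb follow other orders.

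**Figure D4:**
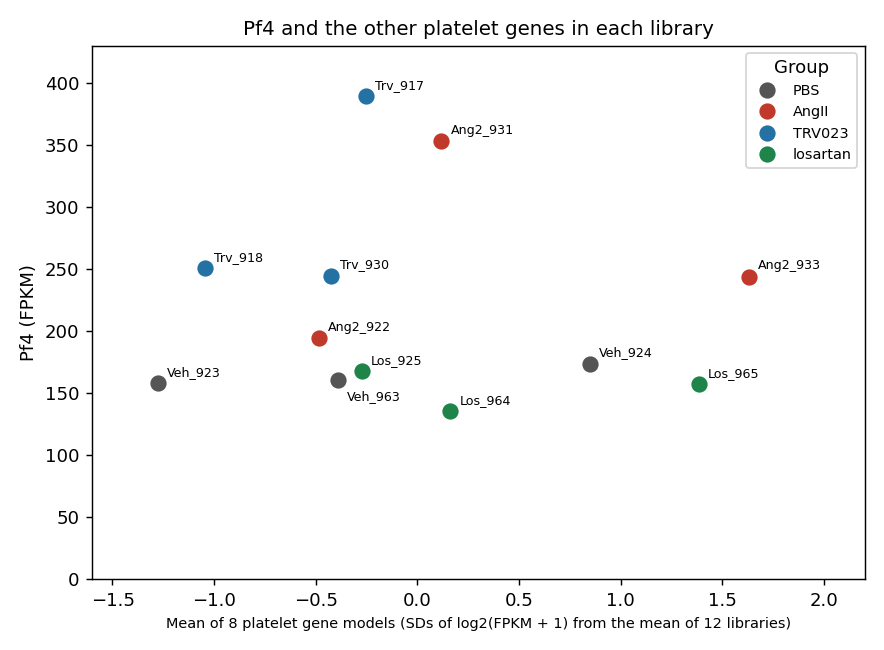
Level of Pf4 (FPKM, vertical axis) against the mean of the 8 co-varying models (horizontal axis, mean of each model's log2(FPKM + 1) in SDs from its mean over 12 libraries), with 1 point per rat. All AngII and TRV023 rats lie above all PBS and losartan rats on the vertical axis, and Veh_924, Ang2_933 and Los_965 lie farthest to the right.

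Markers of other cells moved with some of these values. Besides platelets, some tissue macrophages are known to express Pf4. The summed level of 10 macrophage models was 1040 to 1230 FPKM with PBS, 1153 to 1492 FPKM with AngII, 1218 to 1517 FPKM with TRV023 and 645 to 1162 FPKM with losartan, and none of the 10 was at 0 throughout. Among the libraries this sum went with Pf4 at r = 0.64 and rho = 0.77 (12 libraries), and at r = 0.88 without the 2 farthest, and with the mean of the 8 other models at r = -0.37. With each macrophage model taken in SDs from its own mean, and so weighted alike, the values for Pf4 were r = 0.53 and rho = 0.87. Without the 2 farthest libraries r was then 0.62, and with the 8 other models it was -0.55 over all 12. Other lists went with Pf4 too. In the same SDs, lung epithelium had r = -0.57 and rho = -0.71, and r = -0.36 without the 2 farthest libraries. The summed platelet granule and secretion list had r = 0.47, and 0.80 without the 2 farthest. In SDs that list had r = 0.41, and -0.04 without the 2 farthest. C1qa, a complement gene of macrophages, had a log2 fold change of 0.67 with AngII (DESeq2 adjusted p = 0.0324, edgeR unadjusted p = 0.00501) and of 0.21 with TRV023. C1qb, of the same list, averaged 283.9 FPKM in PBS rats, 310.5 in AngII rats and 337.1 in TRV023 rats. Of 9 macrophage models tested, 7 were positive and 2 negative for AngII, while all 9 were positive for TRV023. Each comparison had 2 of 9 higher at an unadjusted p under 0.05, beside 6.54% and 2.61% of all genes. DESeq2 called 1 of 9 in each, beside 1.45% and 0.704%. The part of macrophages in the Pf4 result was not tested.

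The neutrophil list summed to 155 to 346 FPKM with PBS, 242 to 466 FPKM with AngII, 435 to 761 FPKM with TRV023 and 97.9 to 724 FPKM with losartan, so that each TRV023 rat was above each PBS rat. This sum went with Pf4 at r = 0.43 and rho = 0.48, but at r = 0.09 without the 2 farthest libraries. With each neutrophil model in SDs from its own mean, the values were r = 0.49, rho = 0.66 and, without the 2 farthest, r = 0.25. DESeq2 called 4 of 12 neutrophil models as higher with TRV023, beside 0.704% of all genes in either direction. S100a8, a calcium-binding protein gene of neutrophils, had a log2 fold change of 1.55 with TRV023 (DESeq2 adjusted p = 0.00417). In the mast cell list DESeq2 called 1 of 9 models with AngII and 2 of 9 with TRV023, beside 1.45% and 0.704% of all genes. The 1 with AngII was Tpsb2, a mast cell tryptase, at a log2 fold change of 0.73. Its means were 182.8 FPKM with PBS, 278.4 FPKM with AngII, 331.7 FPKM with TRV023 and 188.4 FPKM with losartan. Mcpt1l1, of the same list, averaged 602.8 FPKM with PBS, 546.9 FPKM with AngII, 503.3 FPKM with TRV023 and 552.3 FPKM with losartan. Of the 9 mast cell models tested, 7 were positive and 2 negative with AngII, while 5 were positive and 4 negative with TRV023. The endothelial list went with the mean of the 8 models at r = 0.68 and with Pf4 at r = -0.08. The erythroid list, a sign of how much blood the tissue held, summed to 3115 to 19260 FPKM and went with the mean of the 8 models at r = 0.08 and with Pf4 at r = 0.18. The erythroid sum was highest in Trv_918, at 19260 FPKM, where the 8 models summed to 14.1 FPKM. In Veh_924 the 2 sums were 14920 and 47.2 FPKM, and in Veh_923 they were 3555 and 11.7 FPKM. The part of neutrophils, mast cells, endothelium and blood content in these results was not tested.

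Further genes of the platelet were read from 4 lists, in none of which edgeR called a gene in any comparison with PBS. Of 12 other receptor models, 6 were positive with AngII and 4 with TRV023, with medians of -0.05 and -0.13. Gp5 was not analysed here. Clec1b, the receptor CLEC-2 for podoplanin, followed the 8 models more closely than any other of 13811 genes searched, with r = 0.89 to their mean over 12 libraries. It read 2.64, 8.56 and 5.46 FPKM in Veh_923, Veh_924 and Veh_963, 6.22, 7.62 and 12.7 FPKM in Ang2_922, Ang2_931 and Ang2_933, 2.58, 2.76 and 5.10 FPKM in Trv_917, Trv_918 and Trv_930, and 6.10, 6.78 and 11.6 FPKM in Los_925, Los_964 and Los_965. Ang2_933 and Los_965 were again the highest, and every AngII rat was above every TRV023 rat, as in 8.15% of all genes. Between AngII and TRV023 the log2 difference of Clec1b was 1.49 ± 0.49 (SE; unadjusted p = 0.00989, edgeR adjusted p = 0.313). Itga2b and Gp9 had the same direction, but they are part of the mean that Clec1b followed, so this is no separate result.

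P2rx1, an ATP-gated channel of platelets, had a log2 fold change of -1.64 with TRV023 (unadjusted p = 0.0186), with Veh_963 alone at 63.5 FPKM and the other PBS rats at 13.03 and 19.9 FPKM. Against the same PBS rats, P2rx1 stood at -0.86 with AngII and -0.68 with losartan, neither with an unadjusted p under 0.05. P2ry12, the ADP receptor blocked by clopidogrel, stood at -0.30 with AngII and 0.18 with TRV023. Tbxa2r, the thromboxane receptor, stood at 0.22 and -0.44, and Itga2, the collagen-binding integrin α2, at -0.97 and -0.41, in that order. None of these 3 had an unadjusted p under 0.05.

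Of 13 granule and secretion models tested with AngII, 2 were higher and 2 lower at an unadjusted p under 0.05, beside 6.54% and 5.39% of all genes, and with TRV023 1 of 14 was higher, beside 2.61%. Mmrn1, the α-granule protein multimerin 1, stood at -0.77 with AngII and Thbs1, thrombospondin 1, at -0.78. Vamp8, a vesicle fusion protein of granule release, stood at 0.54 with AngII, 0.34 with TRV023 and 0.39 with losartan. Vwf, von Willebrand factor of platelets and endothelium, stood at 0.12 with AngII and at 0.60 with TRV023 (unadjusted p = 0.0278), and Selp, P-selectin of both cells, at -0.30 and 0.50. With losartan, Vwf stood at 0.65 (unadjusted p = 0.129) and Selp at 0.45. Members of this list thus lay on both sides of 0 with AngII, and several are also made by endothelium.

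Of 15 signalling models, 6 were higher with AngII at an unadjusted p under 0.05, beside 6.54% of all genes, and 1 with TRV023, beside 2.61%. Lat, an adaptor downstream of GPVI that T cells also use, read 15.6 to 30.4 FPKM with PBS and 30.5 to 51.6 FPKM with AngII, a log2 fold change of 1.09 (DESeq2 adjusted p = 0.0202). Rasgrp2, which activates the GTPase RAP1 ahead of integrin activation, stood at 0.62, Bin2, a membrane-bending protein of blood cells, at 0.57, and Syk, the kinase below GPVI and CLEC-2, at 0.40. With TRV023, Bin2 stood at 0.34 (unadjusted p = 0.0323), and Lat, Rasgrp2 and Syk stood between 0.28 and 0.29. With losartan, Lat stood at 0.40, Bin2 at 0.14, Syk at 0.12 and Rasgrp2 at -0.06.

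Of 10 models in the list of megakaryocyte regulators, most of them transcription factors, 3 were higher with AngII at an unadjusted p under 0.05, 0 with TRV023 and 1 with losartan, beside 6.54%, 2.61% and 0.686% of all genes. Nfe2, a factor needed for platelet release, read 2.08 to 5.62 FPKM with PBS and 4.78 to 9.55 FPKM with AngII. It read 4.90 to 7.92 FPKM with TRV023 and 4.59 to 6.58 FPKM with losartan. Its log2 fold changes were 1.13 with AngII and 0.90 with TRV023. Gata2 stood at 0.53 with AngII and 0.57 with losartan, and Mafg, a partner of NFE2, at 0.44 with AngII. Gfi1b stood at 1.10 with AngII and 1.28 with TRV023, on levels of 0.208 to 2.75 FPKM. Its mean with losartan was 1.03 FPKM, beside 0.629 FPKM with PBS. Gata1, a defining factor of megakaryocytes and erythroid cells, was at 0 in all PBS and losartan libraries and at most 0.110 FPKM elsewhere, so its level set no order.

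By the mean over all 11 models, Pf4 included, the 6 genes whose pattern over the 12 libraries was most alike were Mfng (r = 0.86), Aes (0.86), Scarf1 (0.85), LOC102551071 (0.85), Clec1b (0.82) and Lmo2 (0.82). Without the 2 farthest libraries these r values fell to between 0.57 and 0.70. The genes most like Pf4 alone, looked up after its values were seen, were Lppr3 (r = 0.92), Rbp2 (0.88) and Xkr8 (0.87).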

How the data were processed

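Lung RNA of 12 rats was sequenced, and no source used here names the aligner, counter, genome build, annotation or strand setting. The authors deposited 3 tables, each of 1 ligand group against PBS, with read counts and FPKM per rat, and the deposited FPKM values equal counts scaled by counted reads and by the gene length listed beside them, within a relative tolerance of 1e-06, for 8 of the 11 models. For Itga2b, Gp6 and the septin model of Gp1bb they rest on a shorter length (2510, 923 and 1191 bases against 3302, 948 and 1465 listed), the same in every library with reads, and 1442 to 1575 genes per library, of those with over 50 counts, also had an FPKM off the listed length. The 18 columns of scaled values, the columns of the authors' own fold changes and p-values, and 9 tables of gene subsets were not used. Counts of each whole table were tested with edgeR 4.0.16 (filterByExpr, TMM, quasi-likelihood F-test) in R 4.3.3, with Benjamini-Hochberg adjustment and a threshold of 0.05. Differences between ligands were contrasts in 1 fit of 12 libraries over 15662 genes, levels and SDs used FPKM, and correlations and z-scores used log2(FPKM + 1). Alternatives were DESeq2 1.42.0, limma 3.58.1, other scalings and filters, and leaving out each rat. Scripts were tested on simulated data. The members and lists were chosen with earlier results of these data known. Named were all members, listed platelet genes fixed by name, and from each platelet list up to 4 genes with the smallest p. A gene of the listed regulators is counted but not reported here by name. Labels do not say that rats were housed or sequenced in batches, and intervals and read floors cover counting or sampling error only.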

Additional observations from a re-analysis of the deposited data

How the results depend on the processing

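No paired analysis was possible because the rat numbers are not shared between groups. Over all comparisons, 940 of 1036 refitted log2 fold changes kept their direction and their side of the threshold, 90 changed sign and 6, all of Pf4, passed the threshold under DESeq2. DESeq2 called 219 genes and 1 member with AngII, 107 genes and 1 member with TRV023, 6 genes with losartan, 220 between AngII and TRV023, 97 between AngII and losartan and 13 between TRV023 and losartan. The cause was not tested. With AngII 1 gene instead of 2 was called with library totals, limma-voom, both limma fits on log2 FPKM, all groups in 1 fit, the length trend removed or without Veh_963, whose number with those of Los_964 and Los_965 stands apart from the rest. With TRV023 the count was 0 with limma-voom and with all groups in 1 fit, 2 with limma on log2(FPKM + 0.1) and 3 without Veh_963, and with losartan it was 5 without Veh_963, Los_964 and Los_965. It was 1 between AngII and TRV023 in a fit of their 6 libraries and 1 between TRV023 and losartan with library totals. No member was called in these fits.

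Signs changed as follows. Gp6 with AngII was 0.39 by limma-voom, 0.039 on log2(FPKM + 1) and 0.25 on log2(FPKM + 0.1), and with TRV023 it was 1.34 by limma-voom. The glycoprotein model of Gp1bb with TRV023 was 0.027 on log2(FPKM + 1), 0.032 on log2(FPKM + 0.1), 0.000203 with a mean of at least 10 counts and 0.00467 with all groups in 1 fit. Without Veh_963, Los_964 and Los_965 the septin model was 0.053 with TRV023, and with losartan Ppbp was -0.48, Gp9 -0.046, Gp1ba -0.37, Treml1 -0.24, Tubb1 -0.41, Gp1bb -0.42 and Gp6 -1.66, from 1 losartan rat, which is assumed to vary like the others. Itgb3 with losartan was -0.032 on log2(FPKM + 0.1). Between AngII and losartan, Itga2b was -0.023 with library totals, and the septin model was -0.00299 by DESeq2, -0.099 with library totals and -0.00805 in a fit of 6 libraries.

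Each rat was left out in turn, by edgeR and, chosen after seeing the data, by DESeq2 for the comparisons with PBS. The edgeR fits called 0 to 3 genes with AngII, 0 to 3 with TRV023, 0 to 1 with losartan and 0 to 1 between AngII and losartan, and 0 members. The DESeq2 fits called 72 to 1325 genes (the highest without Ang2_922) and 0 to 1 members with AngII. With TRV023 these fits called 65 to 262 genes (the highest without Veh_963) and 0 to 1 members, and with losartan 8 to 54 genes (the highest without Los_925). The ranges that follow cover both kinds of fit. With AngII the log2 fold change of Ppbp ran from -0.11 to 2.75, Gp1ba from -1.38 to 0.45, Gp6 from -0.83 to 2.73 and Itgb3 from -0.29 to 0.20. With TRV023, Itga2b ran from -0.77 to 0.13, the septin model from -0.26 to 0.053, Tubb1 from -0.16 to 1.08, Gp1bb from -0.35 to 0.49 and Gp6 from -1.04 to 2.33. With losartan, Ppbp ran from -0.27 to 2.27, Treml1 from -0.047 to 1.04, Gp6 from -1.01 to 3.12 and Itgb3 from -0.16 to 0.44. Between AngII and TRV023, Gp1ba ran from -0.34 to 1.38, Pf4 from -0.32 to 0.26, the septin model from -0.19 to 0.085 and Gp6 from -0.38 to 0.98. Between AngII and losartan, Ppbp ran from -0.48 to 1.10, Gp9 from -0.16 to 0.75, Itga2b from -0.40 to 0.61, the septin model from -0.072 to 0.14, Treml1 from -0.59 to 0.94, Tubb1 from -0.49 to 0.92, Gp6 from -1.18 to 0.95 and Itgb3 from -0.52 to 0.084. Between TRV023 and losartan, the septin model ran from -0.085 to 0.24 and Gp6 from -1.29 to 0.56. With 3 rats a group and few reads for Ppbp, Gp6, Gp9 and Gp1ba, differences of these sizes were not detectable.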
